A study of Mus musculus with 9 samples.

Results

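The genes described here encode the proteins of the cytosolic ribosome. They were taken as the protein-coding genes with symbols that begin Rpl or Rps followed by a digit, together with Rpsa, Rplp0, Rplp1 and Rplp2, and without the Rps6k kinases, symbols that contain -ps and Rps12l1. The rule found 86 members among 35580 genes. Of these, 77 are the canonical ribosomal proteins (46 of the large and 31 of the small subunit), 8 are paralogs, and Rps19bp1 carries the name of a protein that binds ribosomal protein S19 and is no ribosomal protein itself. The mean over clones reached 1 CPM (a library-scaled count, relative to the effective size of the library) in 84 members, all 77 canonical members included, while the paralogs Rpl3l and Rps27rt did not reach it. The samples were 9 clones isolated from the bulk culture of the mouse embryonic stem cell line E14 for their differing lipid droplet sizes, and were grown in serum and leukaemia inhibitory factor on gelatin. Poly(A) RNA of each clone was sequenced once. No clone is given its droplet size in the labels used here, and the clones share line, medium and protocol, so they form no groups. Each clone is 1 sample of 1 clone, values are given clone by clone, and no spread between replicates of a clone is known.

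A ribosome holds 1 copy of nearly every ribosomal protein, with the stalk proteins P1 and P2 as the known exception, so a growing cell makes these proteins in matched amounts. Their messages are among the most abundant of a dividing cell, they are short, and they begin with a run of pyrimidines, the terminal oligopyrimidine or TOP motif, through which growth signals set their translation. Embryonic stem cells divide fast and are known to keep a high rate of ribosome assembly. Because the messages are abundant, the mouse genome holds many processed pseudogenes copied from them, and short reads from a gene and from its copy can be hard to tell apart.

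Total estimated counts per clone were 10783718 to 14309662, lowest in clone 1, and every canonical member had at least 316 counts in each clone. Stem cell identity was present in all clones: the 10 pluripotency markers summed to 4807 CPM in clone 11, 5076 CPM in clone 10 and 6112 to 6925 CPM in the other 7. The lists of fibroblast and trophoblast markers had their highest sums in clones 10 and 11. The fibroblast list (5 of 8 markers reached 1 CPM) summed to 55.8 and 64.8 CPM there and to between 7.47 and 22.5 CPM in the rest, but its defining members Lum, Dcn and Postn reached no more than 0.0762, 0.629 and 0.489 CPM in any clone. The trophoblast list (6 of 7 reached 1 CPM), which includes the keratins Krt8 (up to 278 CPM) and Krt18 (up to 182 CPM), summed to 499 and 535 CPM in the same pair and to between 70.3 and 166 CPM in the rest. Its other members were less uniform: Tfap2c had 42.4 and 58.8 CPM in clones 10 and 11 against 37.4 to 82.7 in the rest, Gata3 was highest in clone 14 at 2.41 CPM, and Elf5 did not exceed 1.58 CPM in any clone. Cdx2 and Eomes were highest in clone 11, at 5.66 and 7.87 CPM.

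Many ribosomal protein genes share long stretches of sequence with copies, and sequences that show this come first. Here a copy is a gene outside the 86 for which at least 50% of the 31-base words of a transcript also occur in a member. Where copies are added to a member, all counts of the copy are added, also those of its other transcripts. There were 307 copies, of which 296 are annotated pseudogenes and 11 protein-coding genes, and 69 of the 77 canonical members had at least 1. Of the 31-base words of a canonical member's most counted transcript, a median of 63.9% (2.6 to 99%) also occurred in another gene. Rps27a encodes ubiquitin fused to S27a on chromosome 11, and its copy Gm8430 lies on distal chromosome 6. Their transcripts line up over 471 bases with 1 mismatch, which is A203G counted from 1 at the first base of the Rps27a transcript. These 41 bases of the coding sequence, chr11:29547218-29547258 (minus strand) and chr6:122456954-122456994 (plus strand) in GRCm38, are shown because this base alone separates the pair, and the capital marks it.
Rps27a: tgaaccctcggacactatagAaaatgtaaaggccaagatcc
Gm8430: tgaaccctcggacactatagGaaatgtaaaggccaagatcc
A read of the 471 bases that misses this base cannot be assigned to either gene by sequence. Rps16, a small-subunit protein, and its copy Rps16-ps2 are identical over the whole 441 bases of the copy, which covers all 438 coding bases of Rps16. The first 41 coding bases of Rps16, chr7:28350804-28350844 (plus strand), occur letter for letter in Rps16-ps2 at chr5:129128477-129128517 (minus strand), and no letter is in capitals because none differs.
Rps16: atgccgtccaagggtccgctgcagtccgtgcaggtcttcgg
Rps16-ps2: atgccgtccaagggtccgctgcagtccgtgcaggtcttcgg
Among the 15 pairs aligned without gaps, which were the 12 most counted copies and 3 others, 7 had no mismatch. Rps6 and Rps6-ps4 were identical over 750 bases, Rpl10 and Rpl10-ps3 over 740 and Rpl27a and Gm7536 over 444, while Rplp0 and Gm8730 differed at 12 of 954 bases.

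The order of levels differed with and without the copies. TPM (a share of all transcripts, scaled for transcript length) is the unit for comparing genes with each other, and the median TPM of the canonical members over the 9 clones ran from 75 to 4608, a 61.4-fold spread, with a middle value of 2150. The middle value of the 13378 genes that reached a mean of 1 CPM was 14.3 TPM, and 48 canonical members were among the 100 genes of highest mean TPM. By mean TPM the highest were Rpl26 (4496), Rpl23a (4287), Rpl41 (4181), Rps24 (4146) and Rpl19 (3875). These are proteins of the large subunit except Rps24. The lowest were Rps13 (72.9), Rpl5 (103), Rpl34 (122), Rpl12 (137) and Rpl29 (161). With copies added to their genes, the canonical members spanned 772 to 5783 TPM, a 7.49-fold spread, and their middle value was 2548. Rps13, which contacts the large subunit, had a median of 75 TPM alone and 1722 TPM with its copies, and Rps12 had 250 and 5783 TPM. Rpl39, the lowest with copies at 772 TPM, was at 765 TPM without them.

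**Figure D1:**
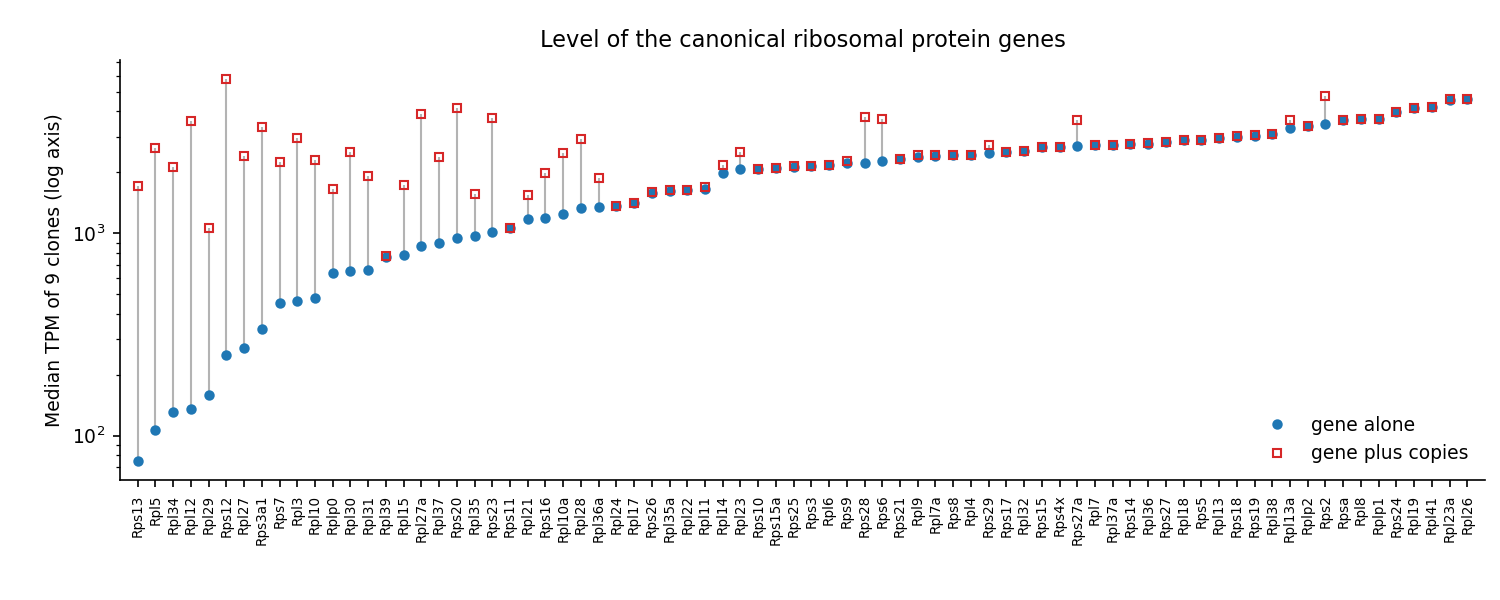
Median TPM of the 9 clones (log axis) for the canonical genes shown, ordered by the level of the gene alone (filled circles), with the level of gene plus copies (open squares). The squares lie far above the circles for the genes at the left, and the spread shrinks from 61.4-fold to 7.49-fold.

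For 16 canonical members the copies held more than 50% of the counts of gene and copies together. The share was highest for Rpl5 (94.3%, mainly Gm15500), Rpl12 (93.9%, Gm10275), Rps12 (93.6%, Rps12-ps3), Rps13 (92.9%, Rps13-ps1) and Rpl34 (89%, Rpl34-ps1). Rpl5 binds 5S rRNA, Rpl12 sits at the base of the stalk, and Rps12 is a protein of the head of the small subunit. Genes that carry a member's symbol with -ps added held 93.2% for Rps12, 92.9% for Rps13, 89% for Rpl34, 81.5% for Rpl3 and 80.8% for Rpl10. Of these genes, Rps12-ps3 and Rpl10-ps3 are annotated as protein-coding in spite of their names. Rpl12 itself was at 65.7 to 110 CPM, with a median of 81.6, while Gm10275 was at 1057 to 1459 CPM. Both were lower in clone 11 than in clones 1 and 4, although Rpl12 was lowest in clone 13. Rpl3 is a large-subunit protein that reaches towards the catalytic centre, and its copy Rpl3-ps1 had levels of 1627 (clone 11) to 2328 CPM (clone 4), with a median of 2072. Rpl10-ps1, a copy of Rpl10, was counted at 101 CPM in clone 4, at 5 CPM in clone 13 and at or near 0 in the other 7. Rps12l1, a copy of Rps12, ranged from close to 0 CPM in clone 11 to 164 CPM in clone 4.

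Between clones, the ribosomal protein genes varied less than genes at large. The range of a gene is its highest minus its lowest clone in log2 CPM. A range of 1 or more was found in 5 of 84 members against 35.3% of 13378 genes, and a range of 0.5 or more in 38 of 84 against 77%. Among the 5081 genes at or above the mean CPM of the lowest canonical member, 14.1% had a range of 1 or more and 59.8% one of 0.5 or more. Canonical members alone had 3 of 77 and 36 of 77, and a median range of 0.47 against 0.78 for all genes, 0.57 for the 5081 and 0.54 for 78 mitochondrial ribosomal proteins. A small range was not particular to them. The median was 0.47 for 63 ribosome biogenesis factors and 0.48 for 20 genes of RNA polymerase I and rRNA transcription. It was 0.45 for 18 elongation factors and other TOP messages, 0.53 for 21 translation initiation factors and 0.60 for 20 genes that control ribosomal protein genes. The large subunit (23 of 46 at 0.5 or more, median range 0.49) and the small subunit (13 of 31, median 0.45) were close to each other. All 84 members differed between the libraries beyond counting noise (chi-square against Poisson sampling over the 9 libraries, Benjamini-Hochberg adjusted over all genes, largest adjusted p 0.013), as did 89.5% of all genes. That test speaks of these libraries only, since the clones have no replicates. It used library totals, not the effective sizes behind the CPM. Poisson sampling does not cover the error of splitting reads between a gene and its copies, so a small p can also reflect that split. With copies added, 4 of 84 had a range of 1 or more, 32 of 84 a range of 0.5 or more, and the canonical median range was 0.44. Around the threshold of 0.5, Rpsa lay just inside at 0.50 and Rpl14 just outside at 0.48.

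**Figure D2:**
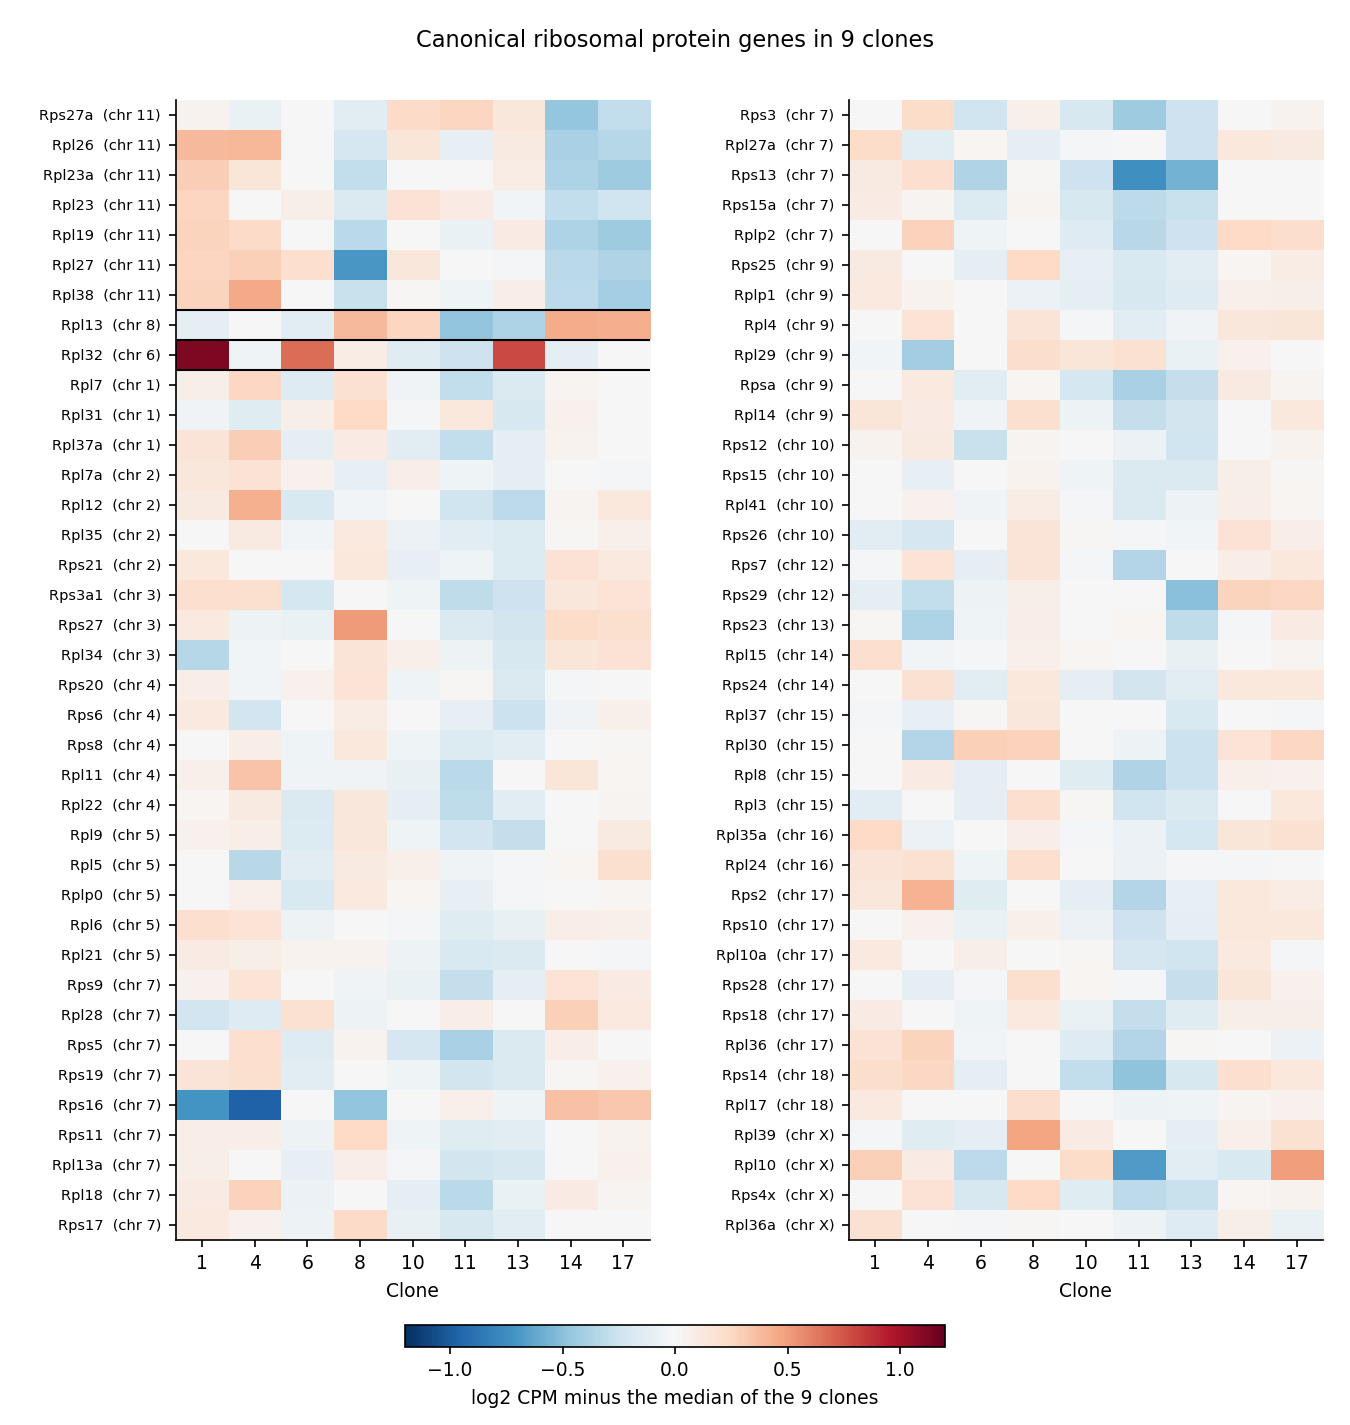
Deviation of the canonical genes shown (rows, with chromosome) in each clone (columns) from its own median over the 9 clones, in log2 CPM, with blue below and red above. The 7 chromosome 11 genes at the top are blue in clones 8, 14 and 17, Rpl13 on chromosome 8 is red in clones 8, 10, 14 and 17, and Rpl32 is red in clones 1, 6 and 13.

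The 7 canonical members on chromosome 11 shared a pattern: each had its 3 lowest values in clones 8, 14 and 17. None of the 67 canonical members outside chromosomes 8, 11 and distal 6 did. Of the other genes of chromosome 11, 60.8% (648 of 1066) had the same 3 lowest clones, and 10.3% of the other genes elsewhere. All 7 encode proteins of the large subunit except Rps27a. Rpl19 (98026710 to 98030492), which forms a bridge between the subunits, had levels of 1438, 1397 and 1336 CPM in clones 8, 14 and 17. Its other levels were 1700 (clone 11), 1801 (clones 6 and 10), 1933 (clone 13), 2104 (clone 4) and 2171 CPM (clone 1). The 2 sets of values did not overlap, and from clone 17 to clone 1 the fold was 1.62 (exact 95% interval 1.59 to 1.66, counting error only, as in all intervals here). Rpl23a (78180932 to 78183584), which lies at the exit of the nascent chain tunnel, had 1114, 1059 and 1020 CPM in the low 3 and 1364 to 1680 in the other 6. Rpl26 (68901583 to 68906989), a protein also known for binding the p53 message, had 1095, 960 and 992 CPM against 1179 to 1663. Rpl38 (114668524 to 114672331), known from mouse mutants with a changed body axis, had 419, 405 and 381 CPM against 486 to 689. None of these 3 genes overlapped between the low 3 clones and the rest.

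Rpl23 (97777527 to 97782437), which is known to bind Mdm2, had the smallest range of the 7, 0.56, with levels of 953, 878 and 915 CPM in the low 3 and 1054 to 1291 in the rest. Rpl27 (101442298 to 101445529) had the largest, 0.98, with 60.6 (clone 8), 76.4 (clone 17) and 78.3 CPM (clone 14) as its low levels and 96.9 to 120 CPM in the rest. Clone 4 exceeded clone 8 by a fold of 1.98 (interval 1.82 to 2.15). Its copies, mainly Rpl27-ps3 on another chromosome and Gm11518 on chromosome 11, held 83.1% of the counts of gene and copies. With them the low levels were 426 (clone 14), 464 (clone 17) and 487 CPM (clone 8), and the rest had 577 to 686. Rps27a (29545846 to 29548109) had 1001, 788 and 888 CPM in the low 3 and 1027 in clone 4, so that clones 8 and 4 were only 0.04 log2 units apart. Gm8430, the pseudogene that differs from it at the single base shown above, had 425 CPM in clone 4 but 32.1 in clone 8. With copies added, clone 8 stood at 1035 CPM and clone 4 at 1454 CPM, and the distance between the 3 lowest clones and the next was 0.30. All 7 members kept the same 3 lowest clones with copies added.

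In single clones, the median deviation of the 7 members minus that of the 67 members elsewhere was -0.35 in clone 8, -0.42 in clone 14 and -0.42 in clone 17. In the other 6 clones it lay between 0.06 (clone 6) and 0.26 (clone 13). The 1066 other genes of chromosome 11 had medians of -0.41, -0.36 and -0.39 in clones 8, 14 and 17 and of 0.02 to 0.12 elsewhere. The members thus lay close to the other genes of their chromosome in those 3 clones, on either side of them. In clones 10, 11 and 13 they stood 0.18, 0.18 and 0.26 above the members elsewhere, which were themselves at -0.05, -0.18 and -0.17. Their own median deviations there were 0.13, 0 and 0.09, and those of the other genes of the chromosome 0.02, 0.03 and 0.09. In clones 1 and 4 the members were at 0.264 and 0.225, above the other genes of the chromosome at 0.119 and 0.122. Rack1, a small-subunit scaffold protein on the same chromosome and outside the rule for members, had 2358, 2257 and 2235 CPM in the low 3 and 2553 to 3826 in the rest.

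On chromosome 8, Rpl13 of the large subunit (123102350 to 123105244) was highest in clones 8, 10, 14 and 17. This order was also found in 6 of 67 members elsewhere, in 55.2% of 714 other chromosome 8 genes and in 5.19% of other genes elsewhere. Rpl13 had levels of 1943, 1767, 2018 and 2004 CPM in these 4 clones. The other 5 had 1066 (clone 11), 1145 (clone 13), 1360 (clone 6), 1369 (clone 1) and 1481 CPM (clone 4), without overlap. From clone 11 to clone 14 it differed 1.89-fold (interval 1.86 to 1.93). The deviation of Rpl13 minus the median of the 67 members elsewhere was 0.31, 0.30, 0.39 and 0.38 in clones 8, 10, 14 and 17 and between -0.29 (clone 11) and -0.06 (clone 4) in the rest. The 714 other genes of the chromosome had medians of 0.28, 0.27, 0.32 and 0.31 in those 4 clones. In clone 11 Rpl13 deviated by -0.47, and 15.3% of the other genes of the chromosome lay as far below their median.

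Rpl32 is the only member on distal chromosome 6 (from position 110 Mb; the gene lies at 115805505 to 115808747). It had the largest range of the canonical members, 1.37. Clones 1, 13 and 6 had 1574, 1250 and 1151 CPM, and the other 6 had 771 CPM (clone 8), 723 (clone 17), 696 (clone 4), 669 (clone 14), 656 (clone 10) and 610 CPM (clone 11). The 3 high clones did not overlap with the rest, and clone 6 was 0.58 log2 units above clone 8. From clone 11 to clone 1 the fold was 2.58 (interval 2.51 to 2.65). Rpl32 has no copy by the definition used here and 97.8% of its counts were in 1 transcript of 517 bases, although 62.4% of the 31-base words of that transcript also occur in other genes. Clones 1, 6 and 13 were the 3 highest for 60.4% of 230 other genes of distal chromosome 6, for 5.26% of other genes elsewhere and for none of the 67 members elsewhere. Their medians in clones 1, 6 and 13 were 0.53, 0.38 and 0.46, while Rpl32 deviated by 1.12, 0.67 and 0.79. In clone 1, 6.09% of the 230 genes (14) were as far above their median as Rpl32, in clone 6 21.3% and in clone 13 25.2%.

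**Figure D3:**
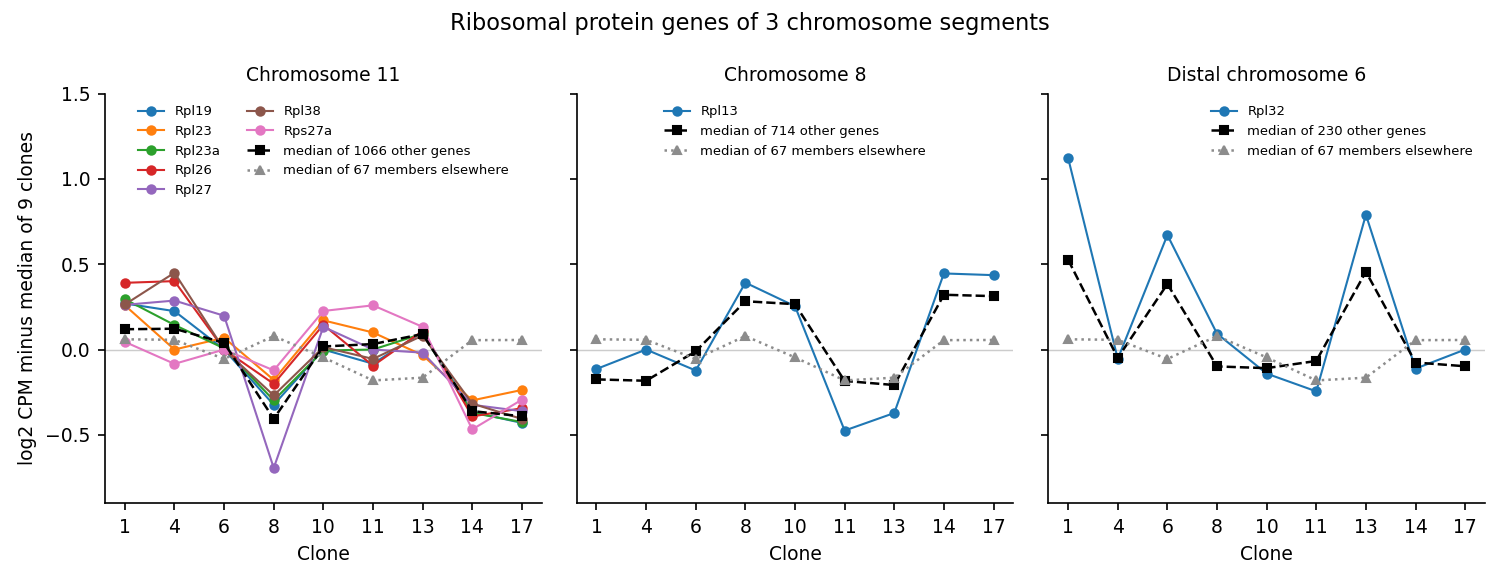
Deviation from the median of 9 clones (log2 CPM) for the 7 members of chromosome 11, Rpl13 on chromosome 8 and Rpl32 on distal chromosome 6 by clone, with the median of the other genes of the same place (dashed) and of the 67 members elsewhere (dotted). Lines only join the points of 1 gene. The chromosome 11 members lie below 0 in clones 8, 14 and 17, as does the dashed line, and Rpl27 lies below that line in clone 8. In clone 1 all of them but Rps27a lie above it (0.259 to 0.391 against 0.119). Rpl13 lies below its line in clone 11 (-0.475 against -0.184). Rpl32 lies above its line in clones 1, 6 and 13 (1.12 against 0.53 in clone 1).

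Rps16, a protein of the small-subunit head whose tail reaches the tRNA, had the largest range of the canonical members outside these 3 places, 1.33. It lies on chromosome 7 at 28350652 to 28353155. Its levels were 203 (clone 4), 242 (clone 1), 286 (clone 8), 384 (clone 13), 398 (clone 6), 400 (clone 10), 414 (clone 11), 497 (clone 17) and 509 CPM (clone 14). The fold from clone 4 to clone 14 was 2.51 (interval 2.4 to 2.63). Adding Rps16-ps2 and the other copy left the range at 1.30, between 311 (clone 4) and 765 CPM (clone 14). Retained-intron transcripts held 93.3% of its counts, and its protein-coding transcript alone, at 13.8 to 38.2 CPM, was lowest in clone 8 and highest in clone 14 with a range of 1.46. The clones that were low for Rps16 were not those that were low for the ribosomal protein genes in general. The median deviation of the 67 members elsewhere was 0.06 in clones 1 and 4 and 0.08 in clone 8.

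Rpl10 on chromosome X, one of the last proteins to join the maturing large subunit, had a range of 1.17. Its levels were 125 (clone 11) to 282 CPM (clone 17) with a median of 200 (fold 2.26, interval 2.14 to 2.39). With its 9 copies, led by Rpl10-ps3 at 754 to 948 CPM, the range was 0.29, from 945 (clone 13) to 1157 CPM (clone 1). Rps13 went from 0.93 (25.3 in clone 11, 48.4 CPM in clone 4) to 0.36, Rpl29 from 0.63 to 0.19, Rps2 from 0.77 to 0.47 and Rpl12 from 0.74 to 0.46. The copies of Rpl29 include the protein-coding gene Uimc1 (24.3 to 37.2 CPM), with 60.9% of the 31-base words of a transcript shared. In all, 6 canonical members had their range reduced by 0.2 or more with copies, Rpl27 included, and 1, Rpl10a, had it increased by as much, from 0.36 to 0.70. Rps13 forms a bridge to the large subunit and Rps2 lies where the mRNA enters. Rpl10a-ps1, the only copy of Rpl10a, had 337 CPM in clone 11 against 798 in clone 4. Rps29, a zinc-binding protein of the small-subunit head, had a range of 0.77 alone (317 in clone 13, 539 CPM in clone 14) and 0.67 with copies.

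**Figure D4:**
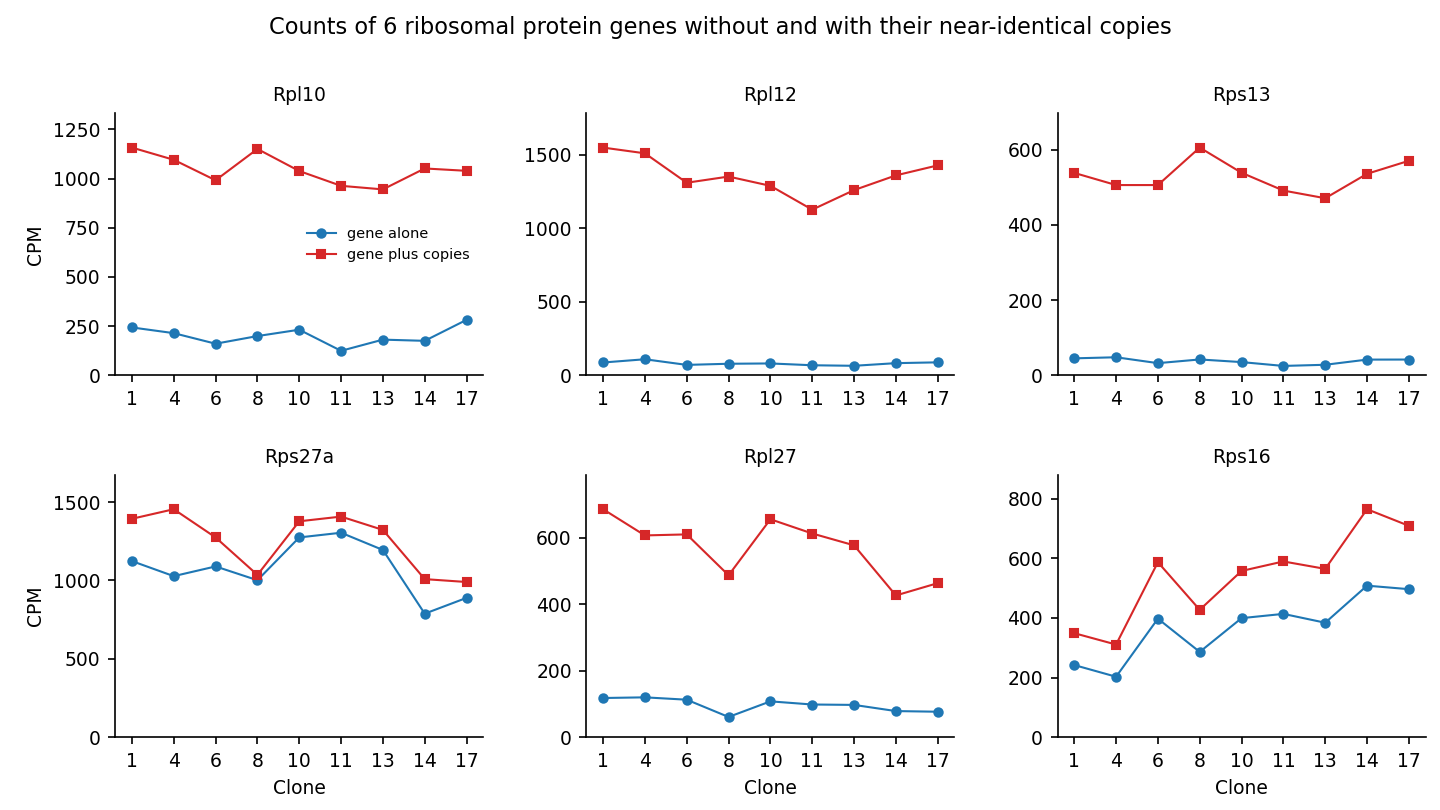
CPM by clone for 6 genes alone (circles) and with their copies (squares), on axes that start at 0, lines joining the points of 1 gene. Copies carry most counts of Rpl10, Rpl12, Rps13 and Rpl27. With copies Rps27a separates clones 8, 14 and 17 (990 to 1035 CPM) from the rest (1274 to 1454 CPM), and Rps16 still spans 311 to 765 CPM.

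Without copies, the steadiest canonical members were Rps15 (range 0.25, 626 to 743 CPM with a median of 706), Rpl41 (0.26, 1000 to 1199 CPM with a median of 1124), Rpl17 (0.27), Rpl24 (0.27) and Rpl7a (0.28). The order changed with copies added, where Rpl29 (0.195) and Rplp0 (0.242), for example, had smaller ranges than Rps15 (0.246). Rps15 is a protein of the small-subunit head and Rpl41 the smallest ribosomal protein. Rpl41, Rpl17 and Rpl24 were all lowest in clone 11 and highest in clone 8.

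Taken over the 67 canonical members elsewhere, the clones differed by little, and clones 11 and 13 were the low ones. The median deviation was -0.18 in clone 11 and -0.17 in clone 13, -0.05 in clones 6 and 10, and 0.06, 0.06, 0.08, 0.06 and 0.06 in clones 1, 4, 8, 14 and 17. Clone 11 had the lowest value for 38 of the 67 and clone 13 for 18, and 63 of 67 lay below their own median in clone 13. The highest value fell in clone 8 for 23, in clone 4 for 20, in clone 1 for 11, and in clones 10, 11 and 13 for none. The shares of all genes that were lowest or highest in each clone are not given here. These counts alone therefore do not set the members apart from other genes. The median of all genes was 0 in every clone on this scale. Since each deviation is from a gene's own median, that value moves little with the scaling and is no check on it. With library totals it lay between -0.023 (clone 1) and 0.008 (clone 11). With library totals in place of effective sizes, clone 13 (-0.11) was lowest, before clone 11 (-0.09), and clone 1 stood at 0.006 rather than 0.06. The signs of all 9 clones were the same under the 4 scalings compared. Large-subunit and small-subunit members gave -0.14 and -0.21 in clone 11 and 0.09 and 0.07 in clone 8. The mitochondrial ribosomal proteins had another order, 0.15 in clone 1, 0.10 in clone 4, -0.04 in clone 11 and -0.08 in clone 8. Clone 11 also had the lowest sum of pluripotency markers and the highest sums of fibroblast and trophoblast markers, as given above, and clone 10, with similar marker sums, stood at -0.05. Clone 13 had marker sums within the range of the other 6 clones (12.2 and 123 CPM). Whether these marker sums come from cells of another type, and whether such cells had a part in the level of clone 11, was not tested. In bulk RNA, a smaller share of cells of a type and less RNA per cell cannot be told apart.

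As a share of all matched counts, the canonical members took 5.69% in clone 11, 5.92% in clone 13, 6.07% in clone 6, 6.13% in clone 10 and 6.37 to 6.55% in clones 14, 1, 17, 8 and 4. The copies of all members added 1.54% (clone 11) to 1.99% (clone 4), so that together they took 7.23 to 8.54%. The 46 large-subunit genes made up 3.35 to 3.84% and the 31 small-subunit genes 2.34 to 2.73%. As a share of TPM the canonical members took 14.4% in clone 13, 15% in clone 11 and up to 16.3% in clone 8.

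**Figure D5:**
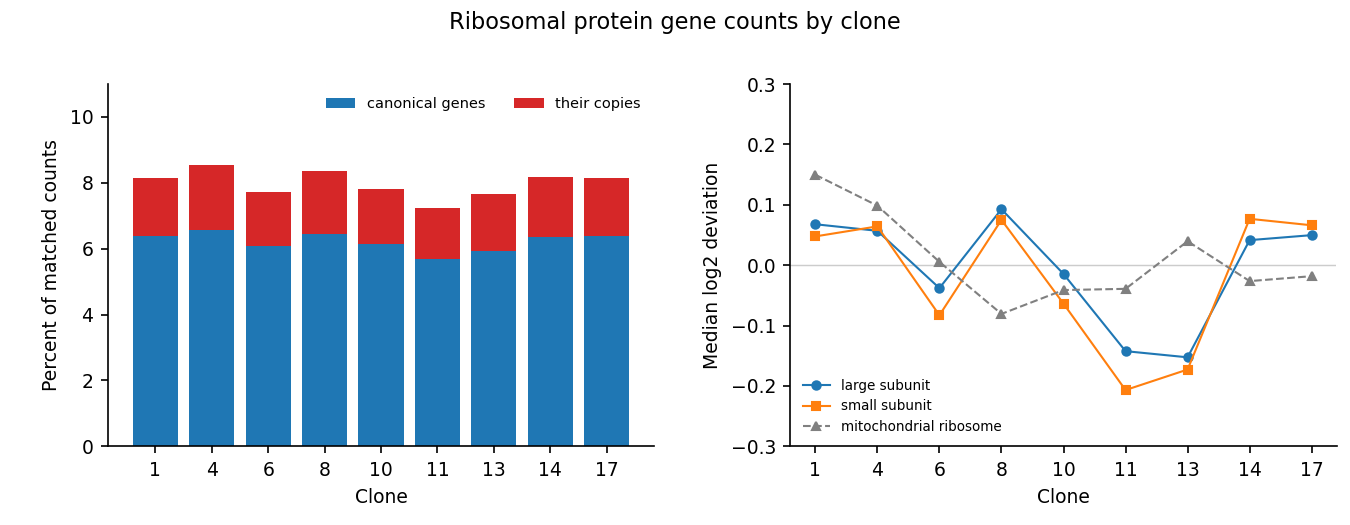
Left, percent of the matched counts of each clone in the 77 canonical genes and in the copies of the members (stacked bars from 0). Right, median log2 deviation by clone of the 67 canonical genes outside chromosomes 8, 11 and distal 6, by subunit, beside 78 mitochondrial ribosomal proteins. Clones 11 and 13 lie lowest for both subunits (-0.14 and -0.15 for the large, -0.21 and -0.17 for the small).

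Reads of the canonical members fell mainly on protein-coding transcripts, 87.5 to 89.1% of their counts by clone. Transcripts annotated for nonsense-mediated decay held 5.09 to 5.9%, retained-intron transcripts 3.92 to 4.91% and other processed transcripts 1.52 to 2.25%. Ribosomal proteins are known to hold down their own synthesis through such unproductive splicing in several cases. Of members with at least 100 counts in every clone, the share in transcripts not annotated as protein-coding varied most for Rps13, from 39.6% in clone 1 to 70.6% in clone 11 (median 59.6%). Next came Rpl35 (37.6% in clone 6 to 60.8% in clone 4), Rps12 (58.2% in clone 1 to 80.1% in clone 17), Rps18 (4.95% in clone 6 to 23.2% in clone 4) and Rps20 (36.1% in clone 4 to 53.9% in clone 11). Clone 4 was at 1 end of the order for Rpl35, Rps18 and Rps20. Such shares rest on the splitting of reads between transcripts that overlap, and copies held 93.6% and 92.9% of the counts of Rps12 and Rps13 with their copies, so the values are uncertain.

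The paralogs were far lower than most canonical members, and only 6 of the 8 reached 1 CPM. Rpl7l1 was at 232 to 288 CPM with a median of 249 and Rpl36al at 211 to 289 CPM, both highest in clone 4 and lowest in clone 11. Rps27l, a p53 target, was at 118 to 144 CPM (range 0.29) and Rpl22l1, the close paralog of Rpl22, at 97 to 124 CPM (0.35). Rpl10l and Rpl39l, which are known from the testis where they stand in for Rpl10 and Rpl39, were at 17.4 to 38.9 CPM and 5.66 to 12.9 CPM. Both had their lowest level in clone 13, followed by clone 1, and their highest in clone 4, with ranges of 1.16 and 1.16 (folds 2.24, interval 1.91 to 2.63, and 2.27, interval 1.72 to 3.03). Rpl3l, the form of striated muscle, reached 0.934 CPM at most (clone 17). Rps27rt was counted in clone 1 only, at 2.47 CPM. Rps19bp1 had 31.8 (clone 10) to 42.3 CPM (clone 1) with a median of 37.2.

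Outside the rule, Fau, which encodes the small-subunit protein S30 behind a ubiquitin-like protein, was at 453 to 596 CPM (range 0.40), lowest in clone 11 and highest in clone 14. The counts by list that follow stand beside a range of 1 or more in 35.3% of 13378 genes. Among the 5081 genes at or above the mean CPM of the lowest canonical member it was 14.1%. Of 63 ribosome biogenesis factors, 4 had a range of 1 or more, and the largest were those of Ncl (nucleolin, 439 in clone 1, median 1113, 1395 CPM in clone 11), Nob1 (76.4 in clone 1, 182 CPM in clone 14), which cleaves the precursor of 18S rRNA, and Fbl (fibrillarin, 139 and 308 CPM in the same clones). All 3 were lowest in clone 1, where the median deviation of the 67 ribosomal protein genes was 0.06, or 0.006 with library totals. Nob1 lies on chromosome 8, where the 714 genes outside the members had a median of -0.175 in clone 1. It had 149 to 182 CPM in clones 8, 10, 14 and 17 and 76.4 to 114 in the rest. Elongation factors and other messages with a TOP motif had 3 of 18 at 1 or more, led by Pabpc1 (451 in clone 1, 1060 CPM in clone 14), Hnrnpa1 (524 and 1136 CPM in the same clones) and Nap1l1 (535 in clone 1, 1099 CPM in clone 11). The translation initiation factors Eif5b (44 to 142 CPM), Eif3b (354 to 790 CPM) and Eif1 (107 to 212 CPM) were also lowest in clone 1, the library with the fewest counts, and the part of depth in this was not tested. Of 20 genes of RNA polymerase I and rRNA transcription none reached a range of 1, and Taf1c, Polr2f and Polr2k came closest at 0.75, 0.74 and 0.71. Taf1c lies on chromosome 8 and had 42 to 55.7 CPM in clones 8, 10, 14 and 17 and 33 to 41.7 in the rest. Among 20 genes that control ribosomal protein genes, 2 reached a range of 1, Mycn with 119 (clone 8) to 303 CPM (clone 11) and Eif4ebp2 with 65.2 (clone 1) to 161 CPM (clone 14). Rps6kb1, on chromosome 11, had 51.9 (clone 17) to 95.9 CPM (clone 11). Mycn was highest in clone 11, where the median deviation of the 67 ribosomal protein genes was -0.18.

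RefSeq promoter sequences (GRCm38.p6, 250 bases before to 50 after the listed start) were matched by symbol to 66 of the 86 members, 57 of them canonical. The letters CGGAAG, on either strand, were in 68.4% of the 57 windows and in 17.4% of all promoters. A run of at least 8 bases that are C or T, read on the coding strand within 15 bases of the start, was in 40.4% against 11.8%, and CACGTG in 10.5% against 7.2%. TATAAA at 40 to 20 bases before the start was in none of the 57 and in 2.26% of all. These windows of 30 bases, 15 before and 15 from the start on, belong to the members of chromosomes 8 and 11 with an entry, and are shown because those genes varied with the other genes of their chromosome. Capitals mark the longest run of C and T.
Rpl13: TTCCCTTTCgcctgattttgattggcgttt
Rpl19: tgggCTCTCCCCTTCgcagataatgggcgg
Rpl23: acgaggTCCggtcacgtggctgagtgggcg
Rpl26: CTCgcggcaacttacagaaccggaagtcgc
Rpl27: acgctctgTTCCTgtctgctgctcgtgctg
Rpl38: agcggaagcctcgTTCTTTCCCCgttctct
They are, in this order, chr8:123102335-123102364, chr11:98026909-98026938, chr11:97782425-97782454 (minus strand), chr11:68901551-68901580, chr11:101442230-101442259 and chr11:114668565-114668594, on the plus strand where none is named. The 5 chromosome 11 members, all lowest in clones 8, 14 and 17, did not share these letters: the longest run was 11 bases in Rpl19, 10 in Rpl38, 5 in Rpl27 and 3 in Rpl23 and Rpl26, and CGGAAG was in the 300 bases of Rpl23, Rpl26 and Rpl38 but not of Rpl19 and Rpl27. A listed start can lie away from the start used in these cells, so a missing match says only that these letters are not in this window.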

How the data were processed

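RNA-seq of 9 E14 clones was used, 1 library each. Per the labels' protocols, libraries came from a stranded mRNA kit, and kallisto 0.43.1, Trimmomatic 0.33, FastQC and CASAVA 1.8 are named by the submitters' processing notes, as are builds GRCm38 and mm10. The annotation release was not given in the sources used here. The tables deposited by the authors hold, for 115270 transcripts, TPM and estimated counts. Of these transcripts 98.53% were matched to GENCODE M21 (GRCm38), and both units were summed per gene.

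CPM used TMM effective library sizes (edgeR 4.0.16, R 4.3.3) and log2 CPM a prior count of 2. Levels of single genes are CPM, and a deviation is from the gene's median over the 9 clones. Counts were rounded for the chi-square test, with adjusted p under 0.05 as its threshold, and single clones far from the rest were sought with Dixon's ratio. Fold intervals are exact 95% binomial intervals of the counts, and PCR reads without molecular identifiers are not independent molecules. Copies were found by shared 31-mers, a step chosen after seeing the data. The steps were tested on simulated counts. The members, gene lists, places, the sets of clones counted as lowest or highest, and the naming rule were chosen with earlier results of these data known. That rule names the 12 canonical members of largest and 5 of smallest range, those on the 3 chromosome places, the 5 highest and lowest by mean TPM, the paralogs, members with a clone 0.5 or more apart, the 5 with the most variable share of transcripts not annotated as coding, the 5 with the largest share in genes of their own symbol with -ps added, and Fau, Rack1 and up to 3 genes of largest range per other list; Rpl10a, Rpl39, Rplp0, Rps6, Rpl27a, Rpsa, Rpl14 and the named copies were chosen after their values were seen. Some genes that this rule names are not reported here. Alternatives were median-ratio size factors (DESeq2 1.42.0), library totals, TMM without members, a prior of 0.5, log2(TPM + 1), other filters, pseudogene counts added, coding transcripts only, other boundaries on chromosome 6 and each clone left out. Python 3.11.15, numpy 2.4.6, pandas 2.3.3, scipy 1.17.1 and matplotlib 3.10.9 were used.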

Additional observations from a re-analysis of the deposited data

Results flagged for a closer look

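Of 84 members tested, 2 had 1 clone far from the other 8 (Dixon's ratio of the gap to the whole range, at its 95% critical value for 9 samples), and chance flags about 1 in 20 of such sets. Rpl15, a large-subunit protein, had 599 CPM in clone 1 against 491 to 542 in the others, a ratio of 0.499. Copies held 38.3% of the counts of Rpl15 and its copies, and with them clone 1 had 985 CPM and the next, clone 4, 919, with 789 to 856 in the rest. Rpl29 had 51.4 CPM in clone 4 against 65 to 79.4 in the others, a ratio of 0.539. Copies held 78.2% of the counts of Rpl29 and its copies, and with them clone 4 had 314 CPM, inside the span of 301 to 345 of the others. These sums include all counts of the protein-coding gene Uimc1, at 37.2 CPM in clone 4 and 24.3 to 34.5 in the others.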

How the results depend on the processing

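Sharing of reads with copies and depth both limit the estimated counts of single members, and 1 library per clone leaves the spread between cultures unknown. No paired analysis was possible because the clones form no groups. Each chromosome difference of at least 0.2 in a single clone kept its side under every alternative run. Clone 4 had no difference of that size, and smaller differences were not judged. Members with a range of 1 or more numbered 8 with protein-coding transcripts only, and 4 with copies added. The median canonical range of 0.468 was 0.459 with median-ratio factors, 0.405 with library totals, 0.452 with TMM without members, 0.429 with log2(gene TPM + 1), 0.506 with coding transcripts only, 0.442 with copies, and 0.413 to 0.468 with a clone left out. The range over clones of the chromosome 11 difference, 0.679, was 0.716 with library totals, 0.644 with -ps genes added, 0.711 with coding transcripts only and 0.656 to 0.73 with a clone left out. For Rpl13 on chromosome 8 it was 0.685, and 0.607 to 0.697 with a clone left out. For Rpl32 it was 1.23, and 1.13 to 1.24 with a clone left out. The cause of these changes was not tested, apart from what each alternative leaves out. Of 679 values recomputed, 249 single-clone differences, library shares and median deviations and 19 other values moved. Moved means beyond counting error or, for counts of members, beyond a set limit. A sign was called only for single-clone chromosome differences of at least 0.2, and none of these changed sign.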
